A study of Mus musculus with 13 samples.

Results

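The members described here are the nuclear genes for subunits of the respiratory chain and ATP synthase, chosen by gene name and transcript type alone and not by any measured value. Names beginning with Nduf and a subunit letter gave 38 members of complex I, the 4 Sdh genes complex II, names beginning with Uqcr 8 members of complex III, Cox4 to Cox8 names 17 members of complex IV, and Atp5 names 18 members of complex V. Together these are 85 of the 36287 genes in the deposited table. The name pattern matched 101 rows, of which 15 without a protein-coding transcript and Cox5b-ps were left out.

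Messenger RNA was sequenced from the hippocampus of 5xFAD mice, a transgenic model of amyloid deposition whose mutant transgenes are driven by the neuronal Thy1 promoter. The mice received ACLP-NT (n = 5, animals 17, 27, 49, 53 and 55), Aducanumab (n = 4, animals 24, 50, 56 and 58) or saline (n = 4, animals 18, 19, 32 and 38). ACLP-NT is known here by its code name, and the series title names a nanomedicine aimed at microglial lysosomes. Aducanumab is an antibody to aggregated amyloid beta. All 3 groups carry the transgenes, and no wild-type group, age, sex, dose, duration or batch is given in the sources used here.

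The respiratory chain passes electrons from NADH at complex I and from succinate at complex II through complex III to oxygen at complex IV, pumping protons across the inner mitochondrial membrane. Complex V uses the returning protons to make ATP, on which synaptic transmission and ion pumping in neurons depend. Most subunits are encoded in the nucleus and imported, while a small set of core subunits is encoded by mitochondrial DNA. Several complex IV subunits have a ubiquitous isoform and a second one restricted to tissues such as heart, skeletal muscle, lung or testis. The name rule also takes in Atp5if1, which inhibits ATP synthase when it runs backwards, and Cox7a2l, which joins complexes III and IV into supercomplexes. Ndufa4 is counted with complex I here by name only, as its protein is isolated with complex IV.

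The smallest library, ACLP-NT 53, held 53642019 counts and the largest, saline 38, held 69734713. Every pair of libraries within a group differed by more than counting error, with a chi-square per degree of freedom of at least 16.1. Each library was counted as 1 sample, though this check cannot tell preparations of the same animal from separate animals. The neuronal genes Camk2a (392.2 to 507.6 FPKM) and Slc17a7 (184.1 to 257.2 FPKM) were present in every library. FPKM are fragment counts scaled to gene length and library size. The summed FPKM of 11 choroid plexus genes ran from 54.4 in saline 18 to 4271 in Aducanumab 58, with libraries at both ends in each group.

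The promoters of 4 members are shown: the common and rare isoforms of subunit 8 (Cox8a and Cox8b), Ndufv3, whose Aducanumab and saline values did not overlap, and Cox6a1, which holds both motifs marked. RefSeq sequences on GRCm38.p6 were found for 68 of the 85 members, each with 250 bases before and 50 after the transcription start. The 150 bases upstream of the start are given 5′ to 3′, on the strand of the gene. Cox6a1 lies at chr5:115348959-115349108 on the minus strand and Ndufv3 at chr17:31519965-31520114 on the plus strand. Cox8a lies at chr19:7217617-7217766 and Cox8b at chr7:140900447-140900596, both on the minus strand. Capitals mark GCGC, NN and GCGC in a row, the palindromic core bound by Nuclear Respiratory Factor 1 and called the NRF1 core here, and CCGGAA or its reverse complement TTCCGG, the core bound by ETS factors such as GABP.
Cox6a1: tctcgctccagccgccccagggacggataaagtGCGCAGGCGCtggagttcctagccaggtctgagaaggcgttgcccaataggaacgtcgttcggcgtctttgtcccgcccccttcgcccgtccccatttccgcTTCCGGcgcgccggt
Ndufv3: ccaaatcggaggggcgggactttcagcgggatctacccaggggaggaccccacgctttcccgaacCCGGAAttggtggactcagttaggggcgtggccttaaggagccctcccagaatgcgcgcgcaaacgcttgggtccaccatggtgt
Cox8a: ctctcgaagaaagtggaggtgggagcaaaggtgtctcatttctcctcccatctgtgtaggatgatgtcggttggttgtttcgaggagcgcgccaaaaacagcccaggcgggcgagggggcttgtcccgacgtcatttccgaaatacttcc
Cox8b: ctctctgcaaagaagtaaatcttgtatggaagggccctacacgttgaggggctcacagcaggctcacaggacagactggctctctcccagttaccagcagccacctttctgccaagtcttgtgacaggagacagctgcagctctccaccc

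These 4 stretches differed in CpG content, with 32 CpG in the 300-base window of Cox6a1, 20 in Ndufv3, 19 in Cox8a and 2 in Cox8b. The stretches shown for Cox8a and Cox8b hold neither marked motif. In the whole 300-base window, which reaches further on both sides, Cox8a held CCGGAA and Cox8b held TATAAA, the TATA box. A motif was counted on either strand of the window, and none of the motifs contains another.

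Over the 64 members with a promoter and a mean of at least 5 FPKM, the median was 19 CpG, against 22 for 5807 other genes tested at that level and 7 for all 27025 genes of the promoter table. The NRF1 core occurred in 28.1% of those 64 promoters, in 17.1% of the other genes at that level and in 7.0% of the whole table. CCGGAA occurred in 39.1%, 31.5% and 16.7% of the same sets. AAGATGGC, a motif of the factor YY1, occurred in 15.6%, 6.04% and 3.19%, and its 10 member promoters were 7 of complex I and 3 of complex V. TATAAA occurred in 7.81% of the members, 7.75% of the other genes at that level and 15.7% of the table. None of the 4 promoters of members under 5 FPKM held the NRF1 core, CCGGAA or AAGATGGC, and 2 of them held TATAAA. These are letter matches in a fixed window and were not tested against the expression values.

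All 85 members passed the filter on low counts. Of these, 78 had a mean of at least 5 FPKM and are called common here. The other 7 were Ndufa4l2, Cox6a2, Cox6b2, Cox8b, Cox4i2, Cox7a1 and Cox7b2, each with a mean count under 150. The median FPKM was 23.0 for complex I, 37.3 for complex II, 44.0 for complex III, 29.0 for complex IV and 28.6 for complex V, against 2.34 for all 22065 genes tested.

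In complex I, the highest FPKM belonged to Ndufb9, an accessory subunit of the membrane arm, with a mean of 61.4. The core subunits Ndufv1 (36.9 FPKM) and Ndufv2 (32.1 FPKM), which take electrons from NADH, stood above Ndufs1 (15.9 FPKM), the largest iron-sulfur subunit. In complex II, the flavoprotein Sdha averaged 79.2 FPKM, the iron-sulfur subunit Sdhb 31.2 FPKM, and the membrane anchors Sdhd and Sdhc 43.5 and 18.8 FPKM. In complex III, the core subunit Uqcrc2 (60.1 FPKM) and the Rieske iron-sulfur protein Uqcrfs1 (58.7 FPKM) led.

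Complex IV spanned the widest range. The ubiquitous isoforms Cox8a, Cox6a1 and Cox4i1 averaged 235, 196.1 and 120.7 FPKM, while their restricted counterparts Cox8b, Cox6a2 and Cox4i2 averaged 1.06, 2.76 and 0.798 FPKM. In complex V, the catalytic head subunits Atp5f1a (alpha) and Atp5f1b (beta) averaged 199.7 and 186.4 FPKM. The 3 genes that encode the same mature c-ring subunit were unequal: Atp5mc3 averaged 44.0 FPKM, Atp5mc2 23.0 FPKM and Atp5mc1 12.1 FPKM.

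**Figure D1:**
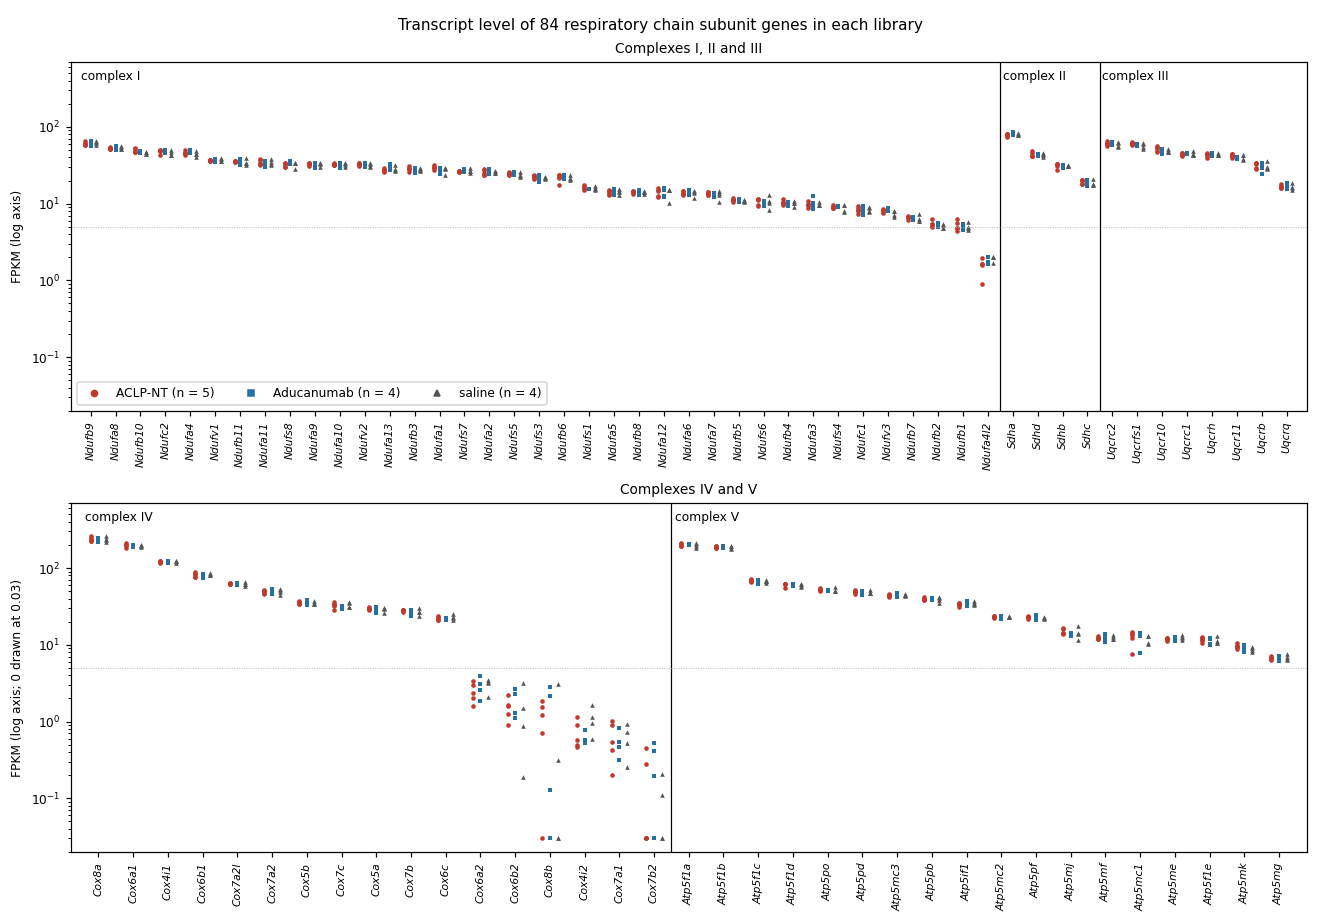
FPKM (log axis) of 84 of the 85 members in every library, sorted by mean within complexes I to V, with ACLP-NT (circles), Aducanumab (squares) and saline (triangles) side by side; the dotted line marks 5 FPKM and values of 0 are drawn at 0.03. The 3 groups overlap for nearly all common members, and the 6 restricted complex IV isoforms at the right of that complex lie low and scattered.

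The order of genes within a complex depended on the length used. The length implied by each member's count and FPKM exceeded that of its longest protein-coding GENCODE M21 transcript by a median of 1.54 times over the 84 members with such a transcript. It exceeded that transcript by over 2 times in 29 of them, and 12 had a ratio under 1.1. Members named for this ratio were picked after their values were seen. Atp5mg, a membrane subunit of ATP synthase, had the largest ratio, 12.8, with an implied length of 6941 bases against a transcript of 544 bases. Ndufb7 had 7.82, Cox6c 5.21 and Ndufb5 4.99.

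On a second scale, CPM (counts scaled to library size) per kilobase of that transcript, Atp5f1b (444) stood above Atp5f1a (252.1). Atp5mg moved to rank 10 of complex V on that scale, against rank 18 by FPKM, and Cox6c to rank 4 of complex IV, against rank 11. Ndufa4 moved to rank 1 of the genes counted with complex I by name, against rank 6. On both scales Cox8a led complex IV and Sdha led complex II. Fold changes between groups do not depend on either length.

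**Figure D2:**
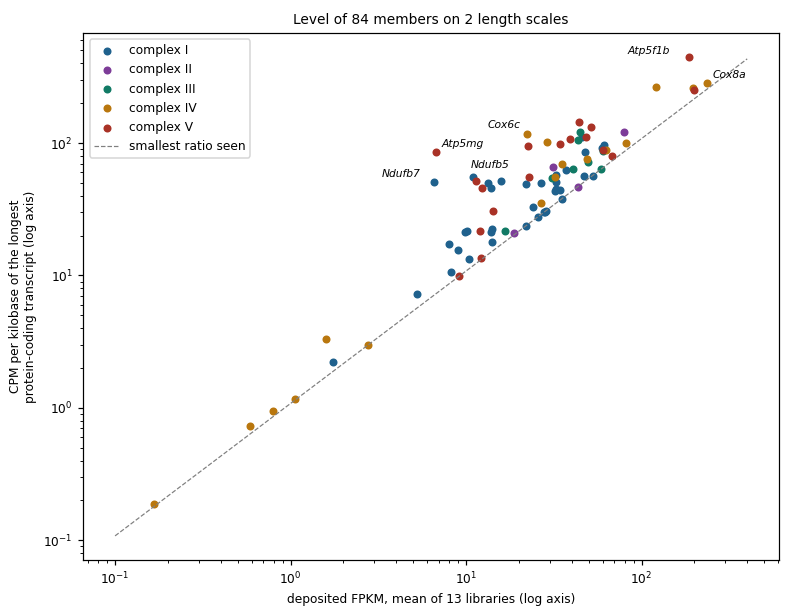
Mean deposited FPKM over 13 libraries (horizontal, log axis) against CPM per kilobase of the longest protein-coding transcript (vertical, log axis) for 84 members, coloured by complex; the dashed line marks the smallest ratio seen, 1.08. Atp5mg, Ndufb7, Ndufb5 and Cox6c lie far above the line, so their FPKM ranks them lower than the transcript scale does.

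Within and between groups the common members were steady. The coefficient of variation over all 13 libraries was under 10% for 71 of 78 common members (91.0%), against 80.7% of the 7773 genes tested with a mean of at least 5 FPKM. The medians were 5.48% and 6.38%. Cox4i1, the regulatory isoform of cytochrome c oxidase subunit 4 found in most tissues, varied least among the members, by 2.25%. It had 122.6, 122.7, 120.1, 117.4 and 121.2 FPKM in ACLP-NT, 117.7, 125.1, 116.7 and 121.3 FPKM in Aducanumab and 121.8, 123.5, 117.1 and 122.3 FPKM in saline. The groups overlap fully.

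Atp5mc1 varied most among the common members, by 18.9%. It had 13.3, 12.2, 14.5, 13.6 and 7.70 FPKM in ACLP-NT 17, 27, 49, 53 and 55, 13.2, 7.82, 14.3 and 14.0 FPKM in Aducanumab 24, 50, 56 and 58, and 10.3, 10.7, 12.9 and 12.9 FPKM in saline 18, 19, 32 and 38. The lowest libraries, ACLP-NT 55 and Aducanumab 50, came from different treatments. Both had low sums of choroid plexus genes, 77.6 and 78.3 FPKM. Saline 18 and saline 32 also had low sums, 54.4 and 99.0 FPKM, with Atp5mc1 at 10.3 and 12.9 FPKM. The part of choroid plexus tissue in the Atp5mc1 values was not tested. In ACLP-NT 55 and Aducanumab 50, Atp5mc1 made up 10.6% of the summed FPKM of the 3 c-ring genes, against 13.3% to 17.6% in the other 11 libraries. Atp5mc3 kept 53.2% to 57.4% in every library.

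Ndufa12, a complex I subunit at the junction of the arms, varied by 12.4%. It had 14.5, 12.7, 14.8, 16.0 and 12.3 FPKM in ACLP-NT, 12.3, 15.2, 12.5 and 15.8 FPKM in Aducanumab and 14.9, 10.3, 14.8 and 15.3 FPKM in saline. Saline 19 was the lowest of all libraries. Its processed pseudogene Ndufa12-ps, one of the rows left out, ran from 6.88 FPKM in ACLP-NT 17 to 33.3 FPKM in ACLP-NT 55 and stood at 20.1 FPKM in saline 19. No source used here says how reads were divided between the gene and its copy, so the Ndufa12 values are uncertain. The same holds for Ndufb4 beside Ndufb4b (mean 7.78 FPKM) and Ndufb4c (12.5 FPKM), and for Cox5b beside Cox5b-ps (8.17 FPKM).

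The common members also shifted together by library. The median of their log2 CPM, each centred on the gene's own mean, ran from -0.069 in saline 19, where 13 of 78 lay above their own mean, to 0.053 in ACLP-NT 17, where 72 of 78 did. Saline 38 (0.038, 60 of 78) and Aducanumab 50 (0.039, 50 of 78) were also high, and Aducanumab 58 (-0.043, 26 of 78) low. High and low libraries thus occurred within more than 1 treatment. The mean of this median was 0.012 ± 0.025 in ACLP-NT (SD, n = 5), -0.0060 ± 0.035 in Aducanumab (SD, n = 4) and -0.0076 ± 0.045 in saline (SD, n = 4), so the groups differed by less than their spread.

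**Figure D3:**
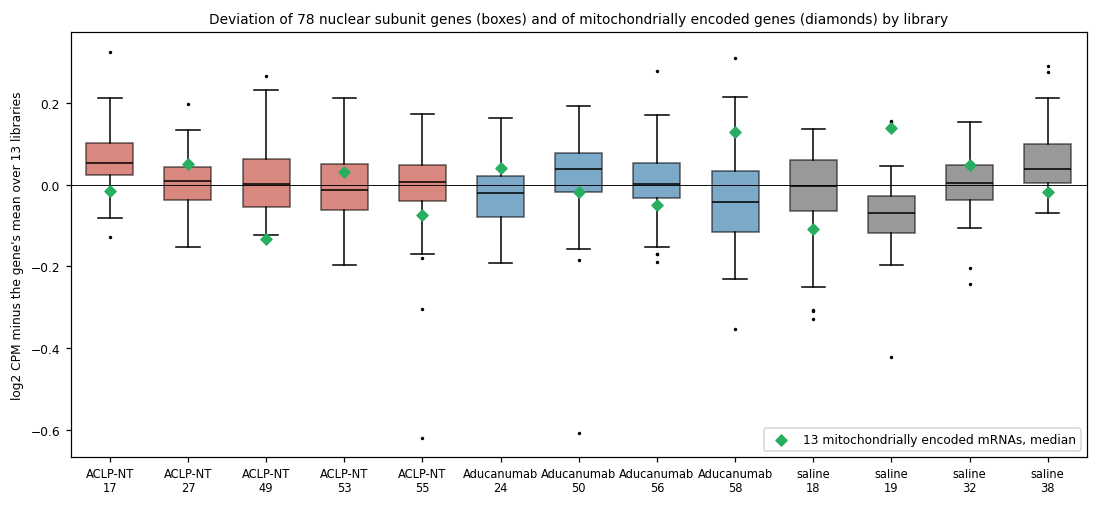
Log2 CPM minus the gene's mean over 13 libraries: each box gives the 78 common members of a library (line, median; box, quartiles; whiskers, 1.5 interquartile ranges; dots, genes beyond), and each diamond the median of the 13 mRNAs encoded by mitochondrial DNA. Saline 19 has the lowest box and the highest diamond, and boxes above and below 0 occur in every group.

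The 13 mRNAs encoded by mitochondrial DNA took 6.09% to 7.26% of all counts, and the 85 nuclear members 0.617% to 0.675%. The largest mitochondrial shares were in Aducanumab 58 (7.26%) and saline 19 (7.24%), the libraries with the lowest medians of the nuclear members. The mitochondrial list had 1 gene higher and 12 lower in ACLP-NT than in saline, the median on the log2 scale being -0.050, and 0 of 13 reached an unadjusted p under 0.05 in edgeR. Aducanumab against saline had 8 higher and 5 lower with a median of 0.0067, and ACLP-NT against Aducanumab 0 higher and 13 lower with a median of -0.065. These genes shifted together by library, so the 13 are not separate observations. Their library medians, computed as for the nuclear members, averaged -0.029 ± 0.075 in ACLP-NT (SD, n = 5). The averages were 0.025 ± 0.078 in Aducanumab and 0.015 ± 0.104 in saline (SD, n = 4 each), and the groups overlap. mt-Co2, the subunit that takes electrons from cytochrome c, averaged 4513 ± 274.1 FPKM in ACLP-NT (SD, n = 5) and 4820 ± 334.6 FPKM in saline (SD, n = 4). Its log2 fold change was -0.093 (SE 0.066, edgeR adjusted p = 0.921).

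ACLP-NT against saline asks whether the nanomedicine changed these transcripts in 5xFAD hippocampus. No member passed the threshold: 0 of 85 had an adjusted p under 0.05 in edgeR's quasi-likelihood test with Benjamini-Hochberg adjustment over 22065 genes, where 0.0% of all genes passed. The smallest adjusted p among members was 0.796. Members had a median change of 0.020 on the log2 scale, with 56 members higher and 29 lower, against -0.0015 over all genes. By complex the medians were 0.021 (I), 0.012 (II), 0.041 (III), 0.010 (IV) and 0.014 (V). The 95% interval lay within 0.32 of 0 on the log2 scale for 77 of 85 members, including all of complexes II and III, against 41.6% of all genes. All genes had a median of only 2.34 FPKM, and no share was computed for genes at the members' level. The share was 97.7% of 43 genes of the cytosolic ribosome, so narrow intervals were not particular to the members. It was 94.4% of 18 genes of the tricarboxylic acid cycle and pyruvate dehydrogenase, called the cycle list here. DESeq2 and limma also called 0 members.

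An unadjusted p under 0.05 was reached by 1 of 85 members, against 5.88% of all genes tested. This was Ndufb10, an accessory subunit of the complex I membrane arm. It had 51.0, 46.7, 47.4, 53.0 and 47.4 FPKM in ACLP-NT and 47.4, 44.0, 43.9 and 46.7 FPKM in saline. The groups overlap. Its log2 fold change was 0.11 (SE 0.046, unadjusted p = 0.0285 in edgeR). In no member did the ranges of CPM in the 2 groups stay apart, against 2.26% of all genes.

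Aducanumab against saline asks the same of the antibody and uses the same saline libraries. Again 0 of 85 members passed in edgeR, with 0.0% of all genes, and the smallest adjusted p was 0.9997. The median log2 fold change was -0.0079, with 35 members higher and 50 lower, against 0.0036 over all genes. The medians were 0.0021 (I), -0.0060 (II), 0.00031 (III), -0.029 (IV) and -0.0067 (V). The interval lay within 0.32 of 0 for 76 of 85 members, against 40.7% of all genes. It did so for 93.0% of the cytosolic ribosome genes and 88.9% of the cycle list.

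In this comparison 2 of 85 members reached an unadjusted p under 0.05, against 4.68% of all genes, and 1 of 85 had groups that did not overlap, against 2.58%. Ndufv3, a small subunit of the NADH-oxidizing module of complex I, met both. It had 8.05, 8.72, 8.53 and 8.70 FPKM in Aducanumab and 7.12, 7.92, 6.71 and 7.94 FPKM in saline. All Aducanumab libraries were above all saline libraries. The log2 fold change was 0.20 (SE 0.063, unadjusted p = 0.00769, adjusted p = 0.9997 in edgeR). In ACLP-NT it had 8.27, 7.85, 7.62, 8.34 and 8.42 FPKM, a log2 fold change against saline of 0.13 (SE 0.060). Those libraries overlap with both other groups.

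Cox4i2, the isoform of subunit 4 found in lung and in pericytes, was the second. It had 0.54, 0.78, 0.59 and 0.52 FPKM in Aducanumab, from counts of 27, 38, 33 and 27, and 1.15, 1.65, 0.97 and 0.60 FPKM in saline, from counts of 57, 89, 56 and 36. The groups overlap at saline 38. The log2 fold change was -0.84 (unadjusted p = 0.037 in edgeR) and -0.56 without saline 19, where the unadjusted edgeR p was 0.152. In ACLP-NT it had 0.57, 0.49, 1.16, 0.89 and 0.47 FPKM. The summed FPKM of 9 pericyte and mural genes was 47.8 to 107.3 in Aducanumab, 49.8 to 66.4 in ACLP-NT and 56.1 to 77.6 in saline. Aducanumab 58 had the highest sum. Vtn (52.7 FPKM), Rgs5 (20.5 FPKM), Acta2 (14.6 FPKM), Tagln (6.30 FPKM), Pdgfrb (5.52 FPKM) and Myh11 (4.19 FPKM) were at their highest of all libraries there. The pericyte channel gene Kcnj8 was at its lowest of all libraries there (0.97 FPKM). Kcnj8 averaged 1.08 ± 0.098 FPKM in Aducanumab (SD, n = 4) and 1.47 ± 0.37 FPKM in saline (SD, n = 4), with a log2 difference of -0.44 (SE 0.18, edgeR adjusted p = 0.9997), the same direction as Cox4i2. Kcnj8 was picked after its values were seen, and the list as a whole did not share its direction. Of the 9 genes, 5 were higher and 4 lower in Aducanumab than in saline (median 0.12, log2). Only 1 of them reached an unadjusted p under 0.05 in edgeR. The part of these cells in the Cox4i2 values was not tested.

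ACLP-NT against Aducanumab sets the treatments side by side. In edgeR 0 of 85 members passed, with 0.0% of all genes, and the smallest adjusted p was 1.0. The median log2 fold change was 0.018, with 56 members higher and 29 lower, against -0.0064 over all genes. The interval lay within 0.32 of 0 for 75 of 85 members, against 43.1% of all genes. It did so for 97.7% of the cytosolic ribosome genes and 88.9% of the cycle list. An unadjusted p under 0.05 was reached by 1 of 85 members, against 3.24% of all genes, and 0 of 85 had groups that did not overlap, against 1.34%. The member was Ndufa13, also known as GRIM-19, with 28.8, 27.4, 26.6, 26.1 and 27.5 FPKM in ACLP-NT and 27.1, 29.6, 30.4 and 32.6 FPKM in Aducanumab. The groups overlap at Aducanumab 24. Its log2 fold change was -0.13 (SE 0.059, unadjusted p = 0.043 in edgeR).

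**Figure D4:**
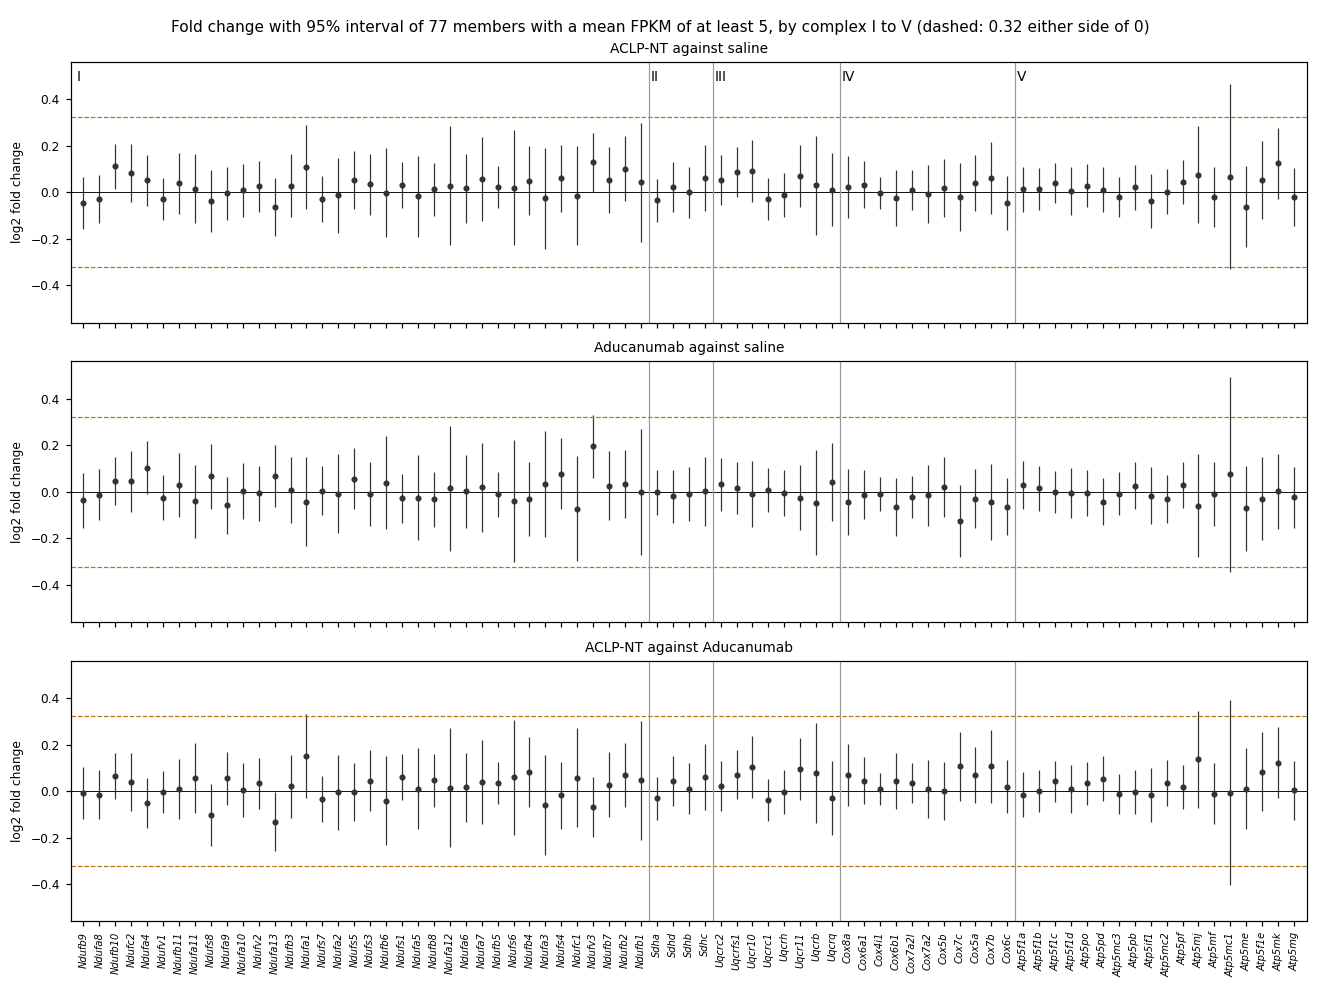
Log2 fold change (points) with its 95% interval (bars) from edgeR for 77 of the 78 common members, in complex order I to V, for ACLP-NT against saline, Aducanumab against saline and ACLP-NT against Aducanumab; dashed lines mark 0.32 either side of 0. Nearly all intervals span 0 and stay inside the dashed lines, and Atp5mc1 has the widest interval in every panel.

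Over the 3 comparisons, no common member had an interval reaching beyond 1.5-fold in either direction. The 7 rare isoforms were measured less precisely, with a median SE of 0.48 (log2) in ACLP-NT against saline, where common members had 0.058. For these 7 no interval stayed within 0.32 of 0 in any of the 3 comparisons. Their counts were low, and for Cox8b and Cox6b2 they also differed widely between libraries of 1 group.

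Among the rare isoforms, Cox8b, the heart and skeletal muscle form of subunit 8 in mice, followed single libraries. Its counts were 30, 17, 46, 33 and 0 in ACLP-NT 17, 27, 49, 53 and 55, 0, 3, 54 and 65 in Aducanumab 24, 50, 56 and 58, and 0, 0, 9 and 84 in saline 18, 19, 32 and 38. Counts of 17 or more were reached in 7 libraries. They are the 7 libraries with the highest sums of choroid plexus genes, 1437 FPKM and above, while the other 6 had at most 577.2 FPKM. Ttr, the transthyretin gene of choroid plexus epithelium, stood at 1211 to 3625 FPKM in those 7 libraries and at 16.4 to 478.2 FPKM in the rest. The part of choroid plexus tissue in the Cox8b values was not tested. A count of 0 allows up to 0.118 FPKM in ACLP-NT 55, 0.132 in Aducanumab 24, 0.133 in saline 18 and 0.123 in saline 19 (3 counts, counting error only).

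Of 8 striated muscle genes, Myh4, Tnnt3, Ckm and Mb stood at 0 in 4, 8, 5 and 2 libraries and averaged at most 0.098 FPKM. Acta1, Actn2, Myh7 and Myl1 were above 0 in every library. In bulk tissue, fewer cells of a type and less RNA per cell cannot be told apart.

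Cox6b2, known as the testis form of subunit 6b, had 1.63, 1.3, 2.22, 1.61 and 0.90 FPKM in ACLP-NT, 1.3, 1.11, 2.28 and 2.67 FPKM in Aducanumab and 0.88, 1.51, 0.19 and 3.20 FPKM in saline. The extremes, saline 32 and saline 38, are of 1 group. Saline 38, Aducanumab 58, Aducanumab 56 and ACLP-NT 49, the highest in Cox6b2, had choroid plexus sums of 4149, 4271, 3669 and 3139 FPKM. ACLP-NT 53, with a sum of 4103 FPKM, had 1.61 FPKM of Cox6b2. The part of this tissue in the Cox6b2 values was not tested. Cox7b2, also named for testis, had counts of 0 to 18 and was at 0 in 6 libraries, so no fold is given. Cox7a1, the heart and muscle form of subunit 7a, had counts of 8 to 39 and averaged 0.62 ± 0.34 FPKM in ACLP-NT (SD, n = 5), 0.54 ± 0.22 FPKM in Aducanumab (SD, n = 4) and 0.61 ± 0.29 FPKM in saline (SD, n = 4).

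Cox6a2, the muscle form of subunit 6a that parvalbumin interneurons also express, had 3.0, 2.38, 2.0, 3.40 and 1.58 FPKM in ACLP-NT, 2.58, 3.90, 1.86 and 3.06 FPKM in Aducanumab and 2.09, 3.24, 3.22 and 3.52 FPKM in saline. The groups overlap. The summed FPKM of 6 genes of those interneurons was highest in Aducanumab 50 (60.05) and saline 18 (56.7), the first with the highest Cox6a2 and the second with a low one. Saline 38 and ACLP-NT 53, high in Cox6a2, had sums of 48.2 and 46.4 FPKM. Pvalb, the parvalbumin gene, had 17.8 FPKM in Aducanumab 50, 15.4 in saline 18, 12.5 in saline 38 and 15.2 in ACLP-NT 53. The part of these interneurons in the Cox6a2 values was not tested. Ndufa4l2, a paralog of Ndufa4 induced by hypoxia, had 1.62, 1.61, 1.63, 0.91 and 1.94 FPKM in ACLP-NT, 2.05, 1.72, 1.64 and 1.71 FPKM in Aducanumab and 2.01, 2.02, 2.03 and 1.68 FPKM in saline. Its lowest value was in ACLP-NT 53, and saline 38 lay among the treated libraries.

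**Figure D5:**
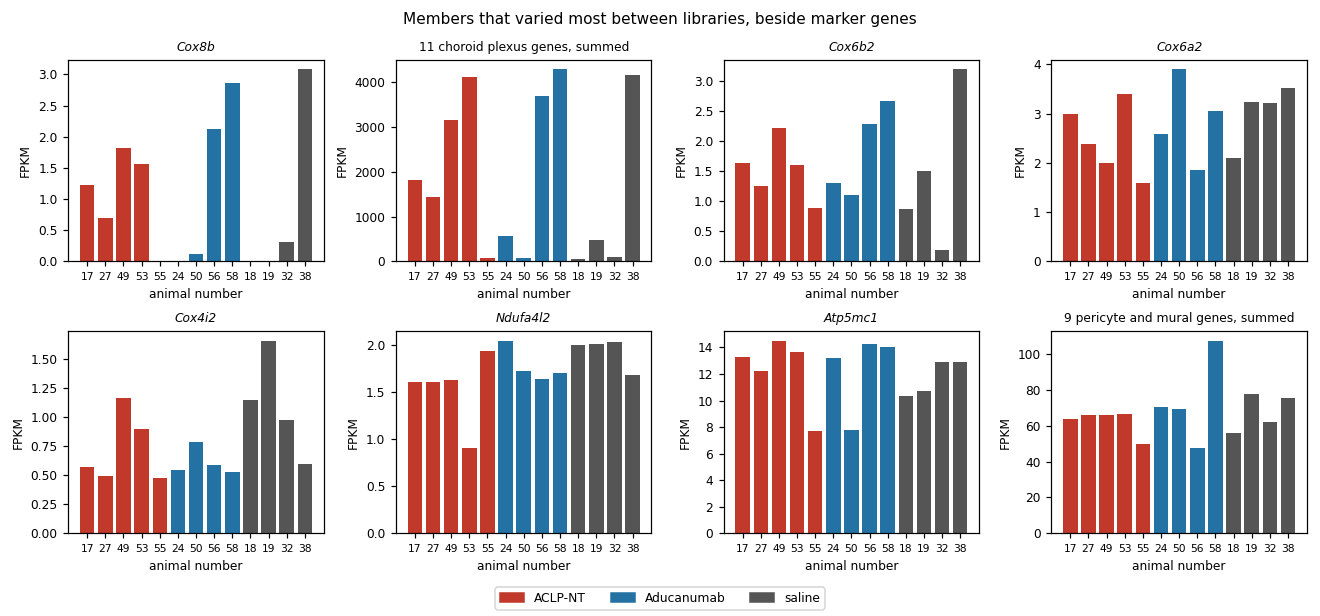
FPKM in each library of 6 members that varied between libraries, beside the summed FPKM of 11 choroid plexus and of 9 pericyte and mural genes; bars are libraries by animal number, in ACLP-NT, Aducanumab and saline. Cox8b is high in the 7 libraries with a high choroid plexus sum, and Atp5mc1 is lowest in ACLP-NT 55 and Aducanumab 50.

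Whether the restricted form gained or lost against the ubiquitous one was compared per library as a log2 ratio of FPKM. Of 5 chosen pairs, 4 were above 0 in every library, giving 12 exact two-sided permutation tests over 3 comparisons. Cox8b over Cox8a was left out for its libraries at 0, and Cox6b2 over Cox6b1 was not among the chosen pairs. None passed after Benjamini-Hochberg adjustment. The smallest p was that of Ndufa4l2 over Ndufa4 in ACLP-NT against saline, with a mean log2 ratio of -4.94 ± 0.42 in ACLP-NT (SD, n = 5) and -4.52 ± 0.22 in saline (SD, n = 4). The difference was -0.42 (SE 0.22, exact permutation p = 0.0794, adjusted 0.429). It was -0.24 without ACLP-NT 53. Cox4i2 over Cox4i1 differed by -0.76 in Aducanumab against saline (SE 0.33, exact permutation p = 0.0857, adjusted 0.429) and by -0.60 in ACLP-NT against saline (SE 0.41, exact permutation p = 0.143, adjusted 0.429). The smallest p these designs allow is 0.0159 for 5 against 4 libraries and 0.0286 for 4 against 4.

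Chain genes outside the name rule stood close to the members. Ndufab1, the acyl carrier subunit of complex I, Cyc1, the cytochrome c1 subunit of complex III, and Cycs, cytochrome c, had log2 fold changes of 0.014 to 0.029 in ACLP-NT against saline and 0.0098 to 0.015 in Aducanumab against saline. Of 51 assembly factors, 50 were tested and 0 passed in any comparison in edgeR. An unadjusted p under 0.05 was reached by 2 of them in each comparison with saline and by 3 in ACLP-NT against Aducanumab, where the shares of all genes were 5.88%, 4.68% and 3.24%. In ACLP-NT against saline 30 were higher and 20 lower (median 0.015, log2). Taco1, which activates translation of mt-Co1, averaged 7.07 ± 0.46 FPKM in ACLP-NT (SD, n = 5) and 6.13 ± 0.67 FPKM in saline (SD, n = 4), with a log2 difference of 0.21 (SE 0.089, edgeR adjusted p = 0.797). Ndufaf4, an assembly factor of complex I, had a log2 difference of 0.12 (SE 0.051, edgeR adjusted p = 0.814) and of 0.17 against Aducanumab (SE 0.051, edgeR adjusted p = 1.0). In Aducanumab against saline 28 were higher and 22 lower, with a median of 0.016. Pet100, an assembly factor of complex IV, averaged 3.40 ± 0.10 FPKM in Aducanumab (SD, n = 4) and 2.86 ± 0.28 FPKM in saline (SD, n = 4), with a log2 difference of 0.25 (SE 0.097, edgeR adjusted p = 0.9997). Sdhaf3, an assembly factor of complex II, averaged 1.60 ± 0.13 FPKM in Aducanumab (SD, n = 4) and 1.81 ± 0.079 FPKM in saline (SD, n = 4), with a log2 difference of -0.18 (SE 0.080, edgeR adjusted p = 0.9997). In ACLP-NT against Aducanumab, Pet100 had -0.22 and Uqcc2, an assembly factor of complex III, 0.16 on the log2 scale (SE 0.092 and 0.069, edgeR adjusted p = 1.0 for both).

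Of 24 regulators of mitochondrial biogenesis, 0 passed in any comparison in edgeR. An unadjusted p under 0.05 was reached by 2 in ACLP-NT against saline, 1 in Aducanumab against saline and 1 in ACLP-NT against Aducanumab. The shares of all genes were 5.88%, 4.68% and 3.24%. In ACLP-NT against saline 16 were higher and 8 lower (median 0.044, log2). Gabpb2 and Gabpb1 encode beta subunits of GABP, the ETS factor that activates many respiratory genes. Gabpb2 had 2.80, 2.67, 2.62, 2.95 and 2.90 FPKM in ACLP-NT and 2.25, 2.46, 2.39 and 2.44 FPKM in saline. Its log2 fold change was 0.23 (SE 0.060, unadjusted p = 0.00186, edgeR adjusted p = 0.722). Gabpb1 had 2.60, 2.51, 2.72, 2.37 and 2.61 FPKM in ACLP-NT and 2.09, 2.35, 2.19 and 2.33 FPKM in saline, a log2 fold change of 0.19 (SE 0.065, edgeR adjusted p = 0.746). For both genes all ACLP-NT libraries were above all saline libraries, which in CPM held in either direction for 2.26% of all genes, and both were picked from the list for their small p. Gabpa, the DNA-binding subunit of the same factor, had 5.86, 5.83, 7.03, 6.30 and 6.79 FPKM in ACLP-NT and 5.83, 5.6, 5.93 and 6.44 FPKM in saline, and these overlap. Whether the 25 members whose promoter holds CCGGAA follow these genes was not tested.

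In Aducanumab against saline 12 regulators were higher and 12 lower, with a median of 0.0062, and Gabpb2 had a log2 fold change of 0.15 (SE 0.063, edgeR adjusted p = 0.9997). Gabpb1 had a log2 difference of 0.20 in ACLP-NT against Aducanumab (SE 0.065, edgeR adjusted p = 1.0). The tricarboxylic acid cycle feeds complex I and shares complex II. Of the 18 genes of the cycle list, which includes pyruvate dehydrogenase genes, 0 passed in edgeR. In each comparison with saline 1 reached an unadjusted p under 0.05, against 5.88% (ACLP-NT) and 4.68% (Aducanumab) of all genes. The median log2 fold change was -0.0023 in ACLP-NT against saline and 0.014 in Aducanumab against saline. Suclg1, the alpha subunit of succinyl-CoA ligase, averaged 15.4 ± 0.57 FPKM in ACLP-NT (SD, n = 5) and 14.4 ± 0.95 FPKM in saline (SD, n = 4), with a log2 difference of 0.10 (SE 0.045, edgeR adjusted p = 0.806). Pdhx, a component of pyruvate dehydrogenase, averaged 8.03 ± 0.28 FPKM in Aducanumab (SD, n = 4) and 8.87 ± 0.49 FPKM in saline (SD, n = 4), with a log2 difference of -0.14 (SE 0.061, edgeR adjusted p = 0.9997).

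Markers of the cells that could carry these transcripts were read beside them. The summed FPKM of 8 neuronal genes was 1115 to 1255 in ACLP-NT, 1064 to 1310 in Aducanumab and 1077 to 1239 in saline. The summed FPKM of 8 microglial genes was 324.7 to 512.8 in ACLP-NT, 406.7 to 533.4 in Aducanumab and 495.0 to 621.3 in saline. In ACLP-NT against saline the microglial list had 0 higher and 8 lower (median -0.32, log2). Of these, 7 reached an unadjusted p under 0.05, against 5.88% of all genes, and 0 passed in edgeR after adjustment. In Aducanumab against saline it also had 0 higher and 8 lower (median -0.29, log2), with 3 under that p, against 4.68% of all genes. Microglia were not alone in this. Against saline, 6 astrocyte genes had 0 higher and 6 lower in ACLP-NT (median -0.067, log2) and 1 higher and 5 lower in Aducanumab (median -0.068). The 11 choroid plexus genes had 11 higher and 0 lower in both. Of 6 oligodendrocyte genes, 2 were higher in ACLP-NT and 5 in Aducanumab, and of 6 endothelial genes 2 in both. The part of cell composition in the members' values was not tested.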

How the data were processed

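Hippocampal RNA of 13 mice was sequenced from oligo(dT) libraries, per the labels' protocols. Counts per gene are raw whole numbers deposited by the authors, and FPKM are the authors' values scaled to gene length and library total, per the file headers. Tools listed in the submitters' processing notes are edgeR, StringTie 1.3.4d, HISAT2 2.0.4 and cutadapt 1.9. No source used here states the counter, annotation or build, so the table's coordinates are not printed. Strand use in counting is not given either, so reads of overlapping antisense genes cannot be told apart.

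Counts were filtered with filterByExpr, TMM-scaled and tested by quasi-likelihood in edgeR 4.0.16 (R 4.3.3, two-sided, 3 groups in 1 fit, Benjamini-Hochberg over 22065 genes, threshold 0.05). The SE is the absolute log2 fold change over the square root of F, or, where F is near 0, the SE of the same fit. Library medians use log2 CPM with a prior count of 2. Isoform ratios used exact permutation tests (SciPy 1.17.1). The method was tested on simulated data. The labels number each replicate, read here as 1 animal each. The p-values set group differences against the spread between these samples. Saline libraries are shared by the comparisons with saline.

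The same results were computed without the filter, on genes with a mean FPKM of 5 or more, with RLE or upper quartile scaling, with robust dispersions, on 2 groups at a time, with DESeq2 1.42.0, limma 3.58.1 on log2(FPKM + 1) and log2(FPKM + 0.1), and leaving out each library. Transcript length and the place of Ndufa4 and Ndufa4l2 were chosen as alternatives after seeing the data. With these 2 genes moved to complex IV, the median log2 fold changes in ACLP-NT against saline were 0.021 (I) and 0.010 (IV). In Aducanumab against saline they were 0.0021 (I) and -0.029 (IV). Members and lists were chosen with earlier results of these data known. Named members are a fixed set of core subunits and isoforms, the 5 with the smallest p on each side of each comparison, the 2 highest of each complex, and those with the highest and lowest variation in each complex at 5 FPKM or more. The values of 1 member are not reported here, though it is in all counts and medians. Of the 3 genes of a pathway list with the smallest p in a comparison, those with an unadjusted p under 0.05 are given, and mt-Co2 for the mitochondrial list, which had none. Gabpa, Kcnj8, Vtn, Acta2, Rgs5, Tagln, Pdgfrb, Myh11, Pvalb, Ndufb4 and members named for length were added after their values were seen.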

Additional observations from a re-analysis of the deposited data

Results flagged for a closer look

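In 162 groups of 4 or 5 libraries, 1 library stood apart from the rest of its group in 11 cases (6.79%), where chance gives about 1 in 20. Atp5mc1 was 7.82 FPKM in Aducanumab 50, with 13.2 to 14.3 in the rest of that group. Cox8b was 3.08 FPKM in saline 38, with 0 to 0.319 in the rest, and Ndufa4l2 was 1.68 FPKM in the same library, with 2.01 to 2.03 in the rest. Uqcrb, a small subunit of complex III, was 35.9 FPKM in saline 38, with 28.5 to 29.6 in the rest.

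Among complex I members, Ndufa12 was 10.3 FPKM and Ndufs8 28.4 FPKM in saline 19, with 14.8 to 15.2 and 33.8 to 34.1 in the rest of that group. Ndufa1 was 23.4 FPKM in saline 18, with 28.2 to 29.0 in the rest. Ndufb2 was 5.52 FPKM in Aducanumab 58, with 5.03 to 5.08 in the rest. Ndufv1 was 37.5 FPKM in ACLP-NT 17, with 36.3 to 36.6 in the rest. Cox7b was 26.5 FPKM in ACLP-NT 27, with 28.0 to 28.4 in the rest, and Sdhb was 27.4 FPKM in ACLP-NT 55, with 31.1 to 32.6 in the rest. Saline 19 and saline 38 account for 5 of these cases.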

How the results depend on the processing

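No member passed the threshold in any of 3 comparisons under any of 22 alternatives. The median log2 fold change of the members moved by less than the spread of the library medians (0.036) under all of them. Leaving out 1 library gave -0.0017 to 0.038 for ACLP-NT against saline, -0.025 to 0.0094 for Aducanumab against saline and 0.0066 to 0.039 for ACLP-NT against Aducanumab. Leaving out 1 library turned the sign in the first 2 comparisons. Over all genes, DESeq2 called 7, 12 and 3 genes in these comparisons, and edgeR with 1 library left out 0 to 1 in each: 1 gene without saline 32 in both comparisons with saline, and 1 without ACLP-NT 49 in both comparisons with Aducanumab. The other settings called 0, and the cause was not tested. Of the log2 fold changes of 54 named members, 3296 values kept their sign and stayed within 1 SE, and 238 did not. The log2 ratio of Ndufa4l2 to Ndufa4 in ACLP-NT against saline differed by -0.53 without saline 38 (exact permutation p = 0.0357 before adjustment). That is the smallest p which 5 against 3 libraries allow. Leaving out any other library of these groups gave an exact permutation p of 0.0857 to 0.179 before adjustment. No paired analysis was possible because the animal numbers of the 3 groups are all different. The 7 members under 5 FPKM had counts of 0 to 270 and are the least precise, through low counts and spread between libraries, whose parts were not separated.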
